A study of Homo sapiens with 20 samples.

Results

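The genes examined were 9 genes of the retinal pigment epithelium and the eye (MITF, OTX2, PAX6, SOX9, BEST1, RPE65, RLBP1, TYRP1 and PMEL), out of 19962 protein-coding genes on chromosomes 1 to 22 and X. They were chosen by name, with earlier results of these data known. Each was taken on hg38 from GENCODE release 44 as its gene record plus 100 kb on either side, with 1000 kb on either side in addition for SOX9 and PAX6. All 9 were found in the annotation. Within these windows, cohesin peaks were counted at the start, in the body and in the flanks of each gene, and the 2 cell lines were compared.

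The peaks came from ChIP-seq, in which an antibody recovers the DNA bound to a protein from cross-linked and sheared chromatin and the DNA is sequenced. Of 20 libraries, hTERT RPE-1 cells, a telomerase-immortalised line from human retinal pigment epithelium, had 2 replicates of each of the 3 cohesin subunits RAD21, SA1 and SA2 and of input chromatin, and hTERT CHM13 cells, a telomerase-immortalised line from a complete hydatidiform mole, had 3 of each. No treatment is named for either line, and each stands for its cell type by a single line. The same SA1 and SA2 antibodies served both lines, whereas the RAD21 antibody was not the same, CHM13 chromatin carried Drosophila chromatin as an internal control, and the lines were sonicated on different instruments. The paper's reporting summary also lists fewer reads for each RPE-1 immunoprecipitate than for the CHM13 ones, apart from a CHM13 RAD21 library. It adds that an RPE-1 replicate with very few reads was discarded. Cell line, antibody, shearing, sequencing depth and the number of replicates therefore cannot be told apart in any difference described here. Each of the 6 lists used, 1 per line and subunit, pools its replicates and gives peak positions without heights, so counts carry no replicate error, and the intervals below cover counting error only. No gene expression was measured in these files, so the pigment epithelial identity of RPE-1 could not be checked against its markers, and whether any of the 9 genes was expressed was not tested.

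Cohesin is a ring-shaped complex that holds sister chromatids together and forms chromatin loops. RAD21 is the subunit that closes the ring, and SA1 (STAG1) and SA2 (STAG2) are alternative subunits that bind RAD21. On chromosome arms, cohesin commonly sits at sites of CTCF, a DNA-binding protein that halts cohesin as it enlarges a loop, so that loops often end there. Loops bring genes and distal regulatory sequences together. In the pigment epithelium, a pigmented cell layer that supports the photoreceptors, MITF and OTX2 are transcription factors that switch on pigment and visual cycle genes. PAX6 and SOX9 are transcription factors of eye development that also act in this layer. BEST1 is an anion channel, RPE65 the isomerase of the visual cycle and RLBP1 a retinaldehyde-binding protein of the same cycle. TYRP1 takes part in melanin synthesis, and PMEL forms the fibrils on which melanin is laid down.

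A site is a stretch covered by overlapping peaks of any of the 6 lists, and its distance is given from the gene's start in the direction of transcription, with negative values upstream. Of the sites near these genes, the MITF sequences are shown first, whole around the site's centre (300 bases, hg38, plus strand, 5′ to 3′), because the sites at -48.1 kb and 52.8 kb were listed for all 3 subunits in RPE-1 and for none in CHM13, whereas that at 209 kb was in all 6 lists. None of these 3 windows held a match to the CTCF core consensus, a motif of 12 letters searched on both strands, even with 1 mismatch allowed.
MITF site at -48.1 kb, chr3:69691160-69691459: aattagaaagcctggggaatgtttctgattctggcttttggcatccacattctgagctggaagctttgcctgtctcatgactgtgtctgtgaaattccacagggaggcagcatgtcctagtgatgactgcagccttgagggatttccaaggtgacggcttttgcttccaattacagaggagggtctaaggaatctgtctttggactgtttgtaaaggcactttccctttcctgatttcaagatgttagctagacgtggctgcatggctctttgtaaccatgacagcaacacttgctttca
MITF site at 52.8 kb, chr3:69792120-69792419: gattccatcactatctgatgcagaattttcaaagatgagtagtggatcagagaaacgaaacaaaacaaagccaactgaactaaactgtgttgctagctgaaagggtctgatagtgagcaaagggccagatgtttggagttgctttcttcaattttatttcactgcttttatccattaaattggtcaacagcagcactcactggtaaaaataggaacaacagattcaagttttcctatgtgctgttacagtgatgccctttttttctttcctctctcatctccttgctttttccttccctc
MITF site at 209 kb, chr3:69948333-69948632: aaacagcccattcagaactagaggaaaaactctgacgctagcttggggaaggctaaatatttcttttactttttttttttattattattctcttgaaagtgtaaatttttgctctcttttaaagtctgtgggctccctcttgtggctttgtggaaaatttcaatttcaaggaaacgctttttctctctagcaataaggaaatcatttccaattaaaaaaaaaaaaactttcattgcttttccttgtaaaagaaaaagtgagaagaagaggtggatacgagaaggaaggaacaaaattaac

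The central 120 bases are shown next (hg38, plus strand) for the sites at the start or in the body of SOX9 and TYRP1 that had an RPE-1 peak, and for the site nearest to the start with a peak in all 6 lists at SOX9, BEST1, RPE65, RLBP1 and PMEL. Capitals mark the CTCF core match. The RLBP1 match had no mismatch, and those of BEST1, RPE65 and PMEL had 1 mismatch each and lay on the minus strand. No match was found at the 2 SOX9 sites and the TYRP1 site.
SOX9 site at -2.27 kb, chr17:72118694-72118813: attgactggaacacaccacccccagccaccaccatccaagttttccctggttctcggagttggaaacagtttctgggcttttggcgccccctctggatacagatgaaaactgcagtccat
SOX9 site at 0.532 kb, chr17:72121492-72121611: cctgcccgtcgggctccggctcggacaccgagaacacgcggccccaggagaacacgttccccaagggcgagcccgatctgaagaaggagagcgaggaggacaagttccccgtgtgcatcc
BEST1 site at -2.24 kb, chr11:61947767-61947886: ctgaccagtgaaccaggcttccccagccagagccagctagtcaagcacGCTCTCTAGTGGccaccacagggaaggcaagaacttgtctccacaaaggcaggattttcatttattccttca
RPE65 site at 107 kb, chr1:68342848-68342967: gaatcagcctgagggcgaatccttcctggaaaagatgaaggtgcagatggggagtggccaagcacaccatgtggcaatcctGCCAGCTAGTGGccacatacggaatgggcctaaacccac
RLBP1 site at 14.6 kb, chr15:89206979-89207098: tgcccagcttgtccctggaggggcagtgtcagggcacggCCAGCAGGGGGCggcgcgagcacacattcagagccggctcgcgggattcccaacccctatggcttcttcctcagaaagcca
TYRP1 site at 17 kb, chr9:12702349-12702468: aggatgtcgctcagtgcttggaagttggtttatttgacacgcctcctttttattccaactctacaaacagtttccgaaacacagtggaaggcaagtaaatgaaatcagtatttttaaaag
PMEL site at 32.9 kb, chr12:55940350-55940469: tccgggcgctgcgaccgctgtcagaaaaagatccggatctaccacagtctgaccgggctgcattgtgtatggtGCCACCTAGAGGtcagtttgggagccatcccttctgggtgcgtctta

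On chromosomes 1 to 22 and X the CHM13 lists held 73739 RAD21, 38153 SA1 and 44374 SA2 peaks, and the RPE-1 lists held 14939, 10707 and 6389. The genome-wide ratio of RPE-1 to CHM13 peaks, against which each gene was read, was thus 0.203 for RAD21, 0.281 for SA1 and 0.144 for SA2. Ratios from the lists on CHM13 v1.0 were 0.217, 0.295 and 0.219, so that for SA2 moved by more than 1.5 times and the others did not. Whether the RPE-1 SA2 list on hg38 lacks peaks was not tested, and every SA2 odds ratio below rests on the hg38 ratio. Median peak widths were 608 to 724 bp in CHM13 and 360 to 443 bp in RPE-1. Peaks that lay in the 100-kb window of at least 1 coding gene had higher ratios than those outside every window, 0.221 against 0.115 for RAD21, 0.308 against 0.167 for SA1 and 0.160 against 0.077 for SA2.

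Over the 9 windows together, RPE-1 had 23 RAD21, 18 SA1 and 12 SA2 peaks and CHM13 had 54, 35 and 36, with each peak counted once. The ratios were 0.426, 0.514 and 0.333, above both the genome-wide ratios and those of coding-gene windows for all 3 subunits. Without the MITF window they were 0.392, 0.438 and 0.242. These are descriptions of a set of genes that was chosen by name with earlier results of these data known. No test was made over the set. Gene by gene, CHM13 had more RAD21 peaks than RPE-1 at PAX6, SOX9, BEST1, RPE65, RLBP1, TYRP1 and PMEL, the lines had 3 each at MITF, and neither had any at OTX2. MITF was the only gene of the 9 with more RPE-1 than CHM13 peaks of a subunit, for SA1 and SA2.

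**Figure D1:**
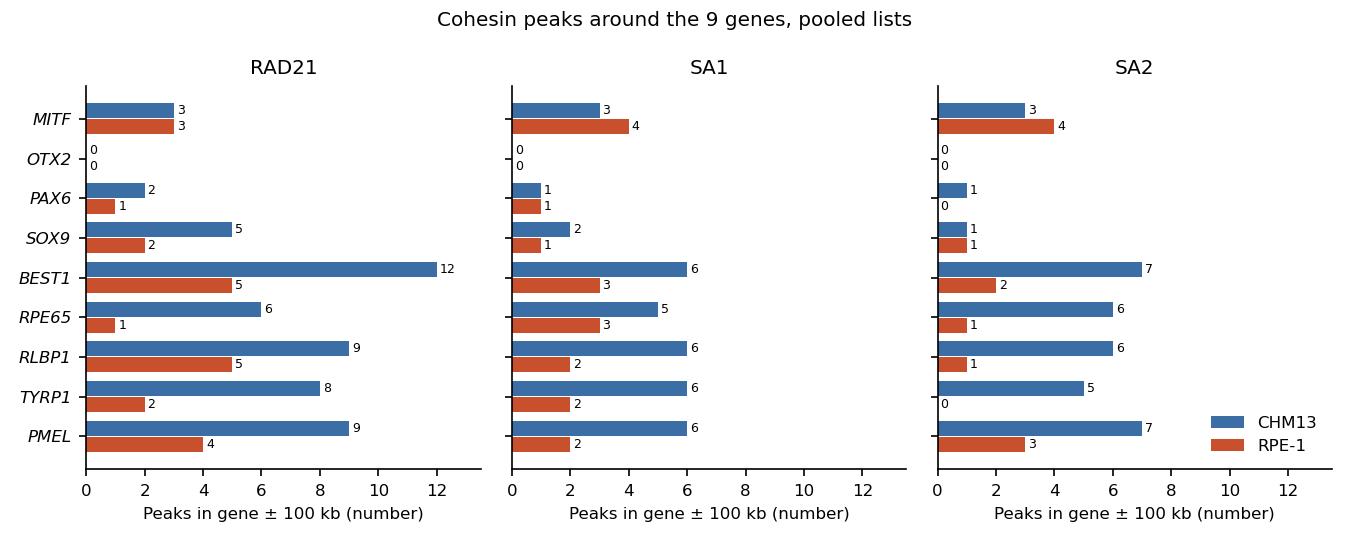
Number of peaks in the gene record plus 100 kb on either side for each of the 9 genes, in 1 panel per subunit, with CHM13 in blue and RPE-1 in orange. CHM13 bars reach 12 (BEST1 RAD21) and RPE-1 bars reach 5, MITF has 4 RPE-1 against 3 CHM13 peaks of SA1 and of SA2, and OTX2 has none, each bar being 1 pooled list without error.

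MITF (ENSG00000187098.18, chr3:69739456-69968336, plus strand, 229 kb) is the pigment cell transcription factor of the group and has 19 distinct annotated transcript starts along its length. Its window of 429 kb held no other coding gene. The RAD21 lists had 3 peaks in RPE-1 and 3 in CHM13, the SA1 lists 4 and 3, and the SA2 lists 4 and 3. In CHM13 these fell at 3 sites, each with all 3 subunits, at -68.2 kb, at 209 kb in an intron of MITF, and at 325 kb in an intron of the long noncoding RNA SAMMSON. RPE-1 had peaks at the first of these for SA1 and SA2 but not RAD21, had all 3 subunits at the second, and had no peak at the third.

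RPE-1 had further sites at -48.1 kb, between genes, and at 52.8 kb, in a MITF intron. Both were listed for RAD21, SA1 and SA2 in RPE-1 and for no subunit in CHM13. The RPE-1 peaks were 541, 422 and 361 bp wide at the first (RAD21, SA1 and SA2) and 449, 444 and 328 bp at the second. The nearest CHM13 peak of any subunit lay 19.7 kb from the centre of the first and 121 kb from that of the second. The intronic site was 2.14 kb from the nearest annotated MITF transcript start, and the shared intronic site at 209 kb was 11.7 kb from one. Within the 300 bases shown above, GC content was 46.3% at -48.1 kb, 39.0% at 52.8 kb and 32.7% at 209 kb. The site at -68.2 kb held 1 exact CTCF core match on the minus strand.

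Sites of this kind were few in these lists. Of 77076 sites genome-wide, 48 (0.0623%) had all 3 RPE-1 subunits and no CHM13 peak, and 476 (0.618%) had any RPE-1 peak and no CHM13 peak. An RPE-1 site without a CHM13 peak lay in the window of 3.37% of coding genes, and among the 9 genes in that of MITF alone. At least 1 site with all 3 RPE-1 subunits and no CHM13 peak lay inside the record of 15 coding genes (0.0751%), and at least 2 such sites lay in the window of 3 coding genes (0.015%). The 3 were MITF, ABLIM1 and MCPH1, of which the last 2 are named here after their values were seen. All 3 are long genes. Among the 1226 coding genes at least as long as MITF, 11 (0.897%) had such a site in the record and 3 (0.245%) had 2 in the window. The criteria used here, 2 sites in the window or 1 in the record, match what was found at MITF. MITF thus met them by construction, and all these shares are descriptions only. The count of long genes was made after the MITF sites had been seen.

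**Figure D2:**
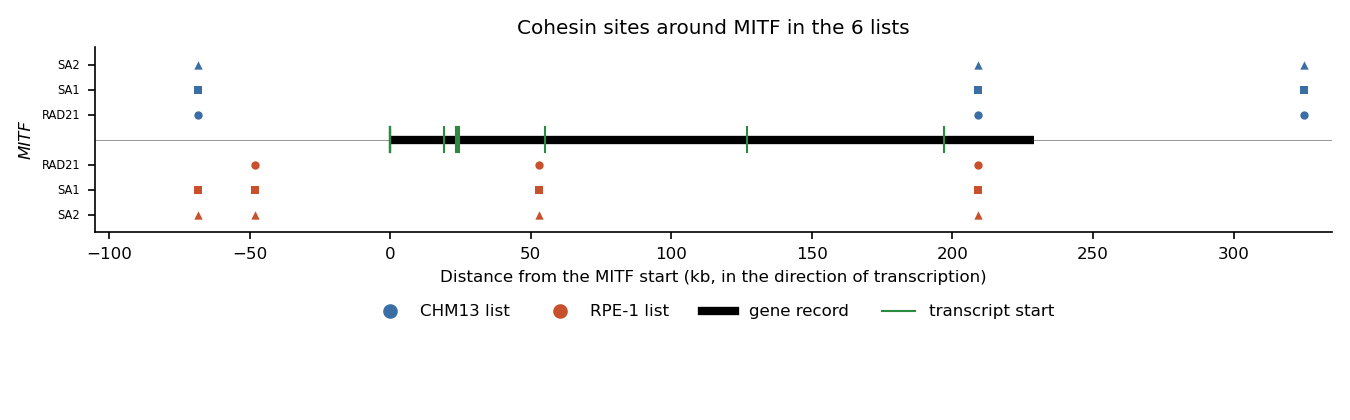
Positions of cohesin sites around MITF by distance from the gene start in kb, with CHM13 peaks above the line in blue, RPE-1 peaks below it in orange, a row per subunit, the gene record as a black bar and transcript starts as green ticks. RPE-1 has all 3 subunits at -48.1 and 52.8 kb where CHM13 has none, both lines have all 3 at 209 kb, and only CHM13 has peaks at 325 kb.

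Each gene was then tested for a share of RPE-1 peaks different from the rest of the genome, with a two-sided Fisher's exact test for every coding gene with a peak in its window and Benjamini-Hochberg adjustment over all of them. The test compares 2 pooled lists and not conditions. No gene passed an adjusted p of 0.05 for RAD21 (0 of 19426, 0.0%), SA1 (0 of 19074, 0.0%) or SA2 (0 of 19102, 0.0%), and the smallest adjusted p was 0.108, 1.0 and 1.0. Unadjusted p was under 0.05 for 1055, 61 and 483 genes. For MITF the SA2 odds ratio of RPE-1 to CHM13 was 9.26 (95% conditional exact interval 1.57 to 63.3, Fisher's exact p = 0.00639, adjusted p = 1.0). The SA1 odds ratio was 4.75 (0.804 to 32.4, Fisher's exact p = 0.0455, adjusted p = 1.0), and that of RAD21 was 4.94 (0.661 to 36.9, Fisher's exact p = 0.064, adjusted p = 0.762). By unadjusted p MITF ranked 12 for SA2, 38 for SA1 and 1289 for RAD21 among all genes tested. The difference at MITF therefore did not pass the test across genes for any subunit. With 3 or 4 peaks a list, its intervals span a wide range. Counts this small could hardly pass after adjustment over all genes, so the result does not show that the lines are alike at MITF.

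**Figure D3:**
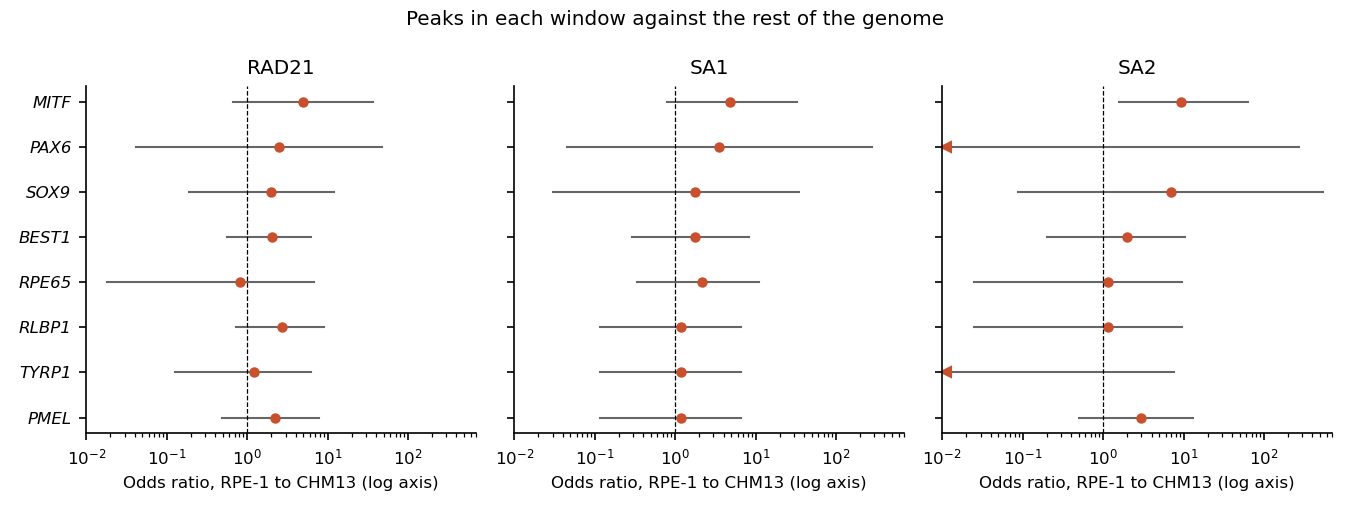
Odds ratio of RPE-1 to CHM13 peaks in each gene's 100-kb window against the rest of the genome, on a log axis, with 95% conditional exact intervals as lines and 1 marked by a dashed line. Left-pointing triangles mark PAX6 and TYRP1, which had 0 RPE-1 SA2 peaks, and their lines are cut at the axis. Of the intervals drawn only that of MITF SA2 lies wholly above 1, and OTX2, with no peak, is left out.

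The other 3 transcription factors are taken in turn. OTX2 (ENSG00000165588.19, chr14:56799905-56816693, minus strand) had no peak of any subunit in either line in its window of 217 kb, as had 495 of 19962 coding genes (2.48%). It lay in an interval of 406 kb without a peak in any list, which reached 250 kb upstream and 156 kb downstream of its start. In each list a count of 0 is still possible with an expected number of up to 3 peaks. In the RPE-1 SA2 list the interval without a peak extended to 1350 kb.

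PAX6 (ENSG00000007372.25, chr11:31784779-31817961, minus strand) had no peak in its record or at its start in any list. Its window held 2 sites, both upstream in introns of the noncoding RNA PAUPAR and of ENSG00000285283. That at -53.3 kb had all 3 subunits in CHM13 and RAD21 and SA1 in RPE-1, and that at -69.4 kb had RAD21 in CHM13 alone. RPE-1 and CHM13 thus had 1 and 2 RAD21 peaks, 1 and 1 SA1 peaks, and 0 and 1 SA2 peaks.

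Within 1000 kb on either side, PAX6 had 10 RPE-1 and 41 CHM13 RAD21 peaks and 8 and 25 SA1 peaks, with odds ratios of 1.2 (0.538 to 2.44) and 1.14 (0.444 to 2.61). RPE-1 had no SA2 peak in this window of 2.03 Mb and CHM13 had 32. The upper limit of the SA2 odds ratio was 0.848 (Fisher's exact p = 0.0281, adjusted p = 0.233), so the absence did not pass the test across genes. The RPE-1 SA2 list was also the shortest of the 6 and, relative to CHM13, shorter on hg38 (ratio 0.144) than on CHM13 v1.0 (0.219). Whether the empty SA2 row at PAX6 comes from peaks missing from the hg38 list was not tested. The PAX6 region was not examined in the list on CHM13 v1.0. At this width 15.8% of genes passed for RAD21, 0.01% for SA1 and 0.943% for SA2. All 10 RPE-1 RAD21 peaks lay upstream of the PAX6 start and 0 downstream, whereas the CHM13 list had 28 upstream and 13 downstream. RPE-1 SA1 peaks lay on both sides, 5 upstream and 3 downstream. The split by side was not tested at PAX6 or SOX9 and was not counted for other genes. Of 42 sites, 13 had an RPE-1 peak, 0 were in RPE-1 alone and, with no SA2 peak, 0 were in all 6 lists.

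SOX9 (ENSG00000125398.8, chr17:72121020-72126416, plus strand) was the only gene of the 9 with a peak within 1 kb of the start of its record. Its site at 0.532 kb, in a coding exon, had RAD21 and SA1 in CHM13 and RAD21 alone in RPE-1, and its RAD21 peaks, 1285 bp in CHM13 and 991 bp in RPE-1, were wider than the median of their lists. CHM13 had a further RAD21 peak at the start, at -0.614 kb. The site at -2.27 kb, in introns of SOX9-AS1 and of ENSG00000288605 on the minus strand, was in all 6 lists. RAD21 peaks at 1.74 and 5.79 kb were in CHM13 alone. All 5 sites of the window lay between these positions, and no further peak was listed in its flanks. RPE-1 and CHM13 had 2 and 5 RAD21 peaks, 1 and 2 SA1 peaks, and 1 and 1 SA2 peaks.

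Within 1000 kb on either side of SOX9 the counts were 11 RPE-1 and 66 CHM13 for RAD21, 7 and 28 for SA1, and 5 and 39 for SA2. The odds ratios were 0.823 (0.392 to 1.57), 0.891 (0.328 to 2.09) and 0.89 (0.274 to 2.26), with adjusted p of 0.785, 1.0 and 1.0 by Fisher's exact test. CHM13 RAD21 peaks lay 40 upstream and 26 downstream of the SOX9 start, and RPE-1 RAD21 peaks 2 upstream and 9 downstream. RPE-1 SA1 peaks lay 3 upstream and 4 downstream, and RPE-1 SA2 peaks 2 and 3. As at PAX6, the split by side was not tested. Of 66 sites, 5 were in all 6 lists, 12 had an RPE-1 peak and 0 were in RPE-1 alone.

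**Figure D4:**
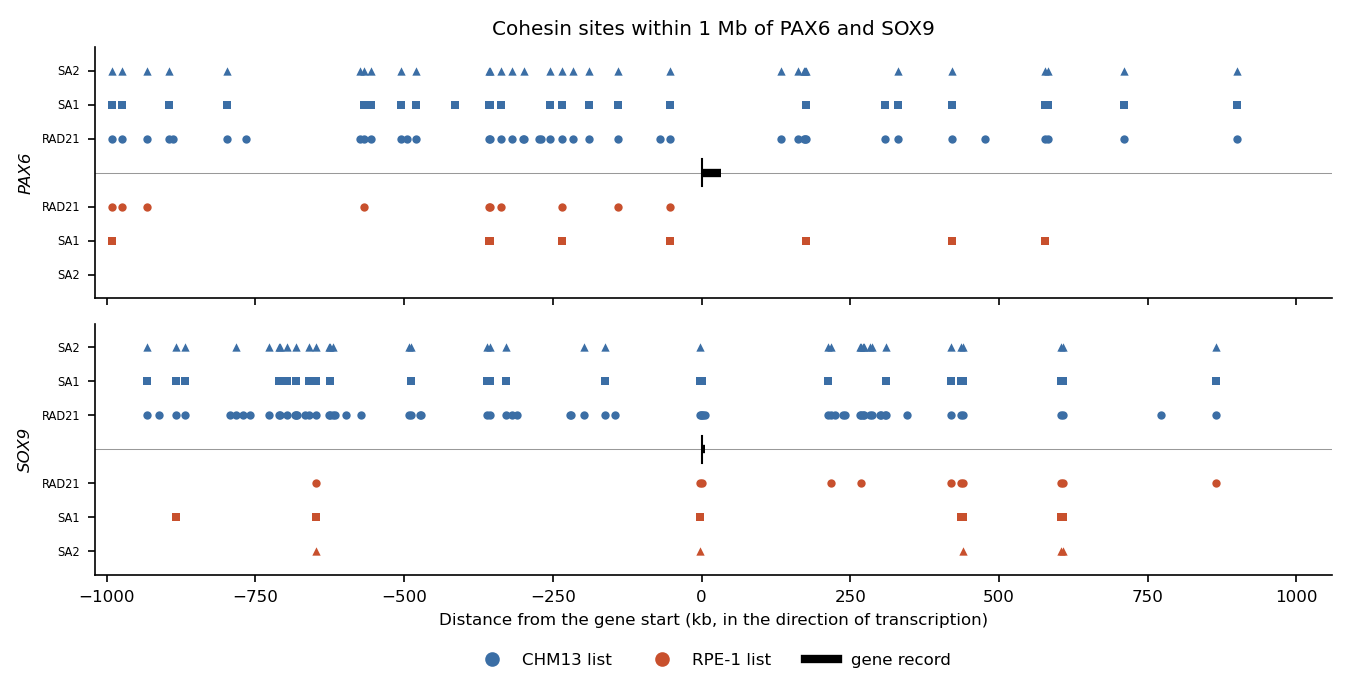
Sites within 1000 kb of PAX6 (top) and SOX9 (bottom) by distance from the gene start in kb, drawn as in the map of MITF. At PAX6 the 10 RPE-1 RAD21 peaks are all upstream and the SA2 row of RPE-1 is empty, and at SOX9 9 of 11 RPE-1 RAD21 peaks are downstream. The split by side was not tested.

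Both visual cycle genes had a flanking site in all 6 lists and no RPE-1 peak in the record. RPE65 (ENSG00000116745.7, chr1:68428822-68449954, minus strand) had 1 RPE-1 and 6 CHM13 RAD21 peaks, 3 and 5 SA1 peaks, and 1 and 6 SA2 peaks. The only site in its record, at 6.74 kb in an intron, had all 3 subunits in CHM13 and none in RPE-1. RPE-1 peaks lay at 107 kb, in all 6 lists, and as SA1 alone at 104 kb and -20.6 kb. The RAD21 odds ratio was 0.823 (0.0179 to 6.78), the only 1 of the 8 testable genes below 1 for RAD21. RLBP1 (ENSG00000140522.12, chr15:89209869-89221614, minus strand) had 5 and 9 RAD21, 2 and 6 SA1, and 1 and 6 SA2 peaks in RPE-1 and CHM13, with none in its record. Its site at 14.6 kb, 4.8 kb from the nearest RLBP1 transcript start, was in all 6 lists. RPE-1 RAD21 peaks also lay at 43.7, 50.0 and 91.9 kb in introns of ABHD2, a neighbouring hydrolase gene, and at -22.2 kb, 0.117 kb from the start of the DNA repair gene FANCI. The RAD21 odds ratio was 2.74 (0.722 to 9.11, Fisher's exact p = 0.0717, adjusted p = 0.762).

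At BEST1, the anion channel gene, and at the pigment genes TYRP1 and PMEL, RPE-1 peaks were again a subset of the CHM13 sites. BEST1 (ENSG00000167995.17, chr11:61950063-61965515, plus strand) had 5 RPE-1 and 12 CHM13 RAD21 peaks, 3 and 6 SA1 peaks, and 2 and 7 SA2 peaks, in a window with 4 other coding genes. Its sites at -2.24 kb and -78.8 kb were in all 6 lists, and RPE-1 RAD21 peaks also lay at -52.2, -50.8 and 105 kb. The site at 5.05 kb in a BEST1 coding exon, 0.048 kb from the start of a BEST1 transcript, was listed for CHM13 RAD21 alone, and no RPE-1 peak lay in the record.

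TYRP1 (ENSG00000107165.13, chr9:12685439-12710285, plus strand) had 2 and 8 RAD21, 2 and 6 SA1, and 0 and 5 SA2 peaks in RPE-1 and CHM13. Its site at 17.0 kb covered a coding exon, lay 0.764 kb from a TYRP1 transcript start and had all 3 subunits in CHM13 and RAD21 and SA1 in RPE-1. With MITF, and SOX9 by its peak at the start, it was 1 of 3 genes with an RPE-1 peak within the record. The 0 SA2 peaks left the odds ratio between 0 and 7.58. PMEL (ENSG00000185664.15, chr12:55954105-55973317, minus strand) had 4 and 9 RAD21, 2 and 6 SA1, and 3 and 7 SA2 peaks, in the window with the most other coding genes, 7. The site at 17.1 kb in a PMEL coding exon, 0.341 kb from a PMEL transcript start, was in the CHM13 RAD21 list alone. The site at 32.9 kb, in a coding exon of DGKA, was in all 6 lists, and that at -23.1 kb, in RAB5B, had all 3 subunits in CHM13 and SA1 and SA2 in RPE-1. Odds ratios of BEST1, TYRP1 and PMEL were 1.19 to 2.98 wherever RPE-1 had a peak, and none passed the test.

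**Figure D5:**
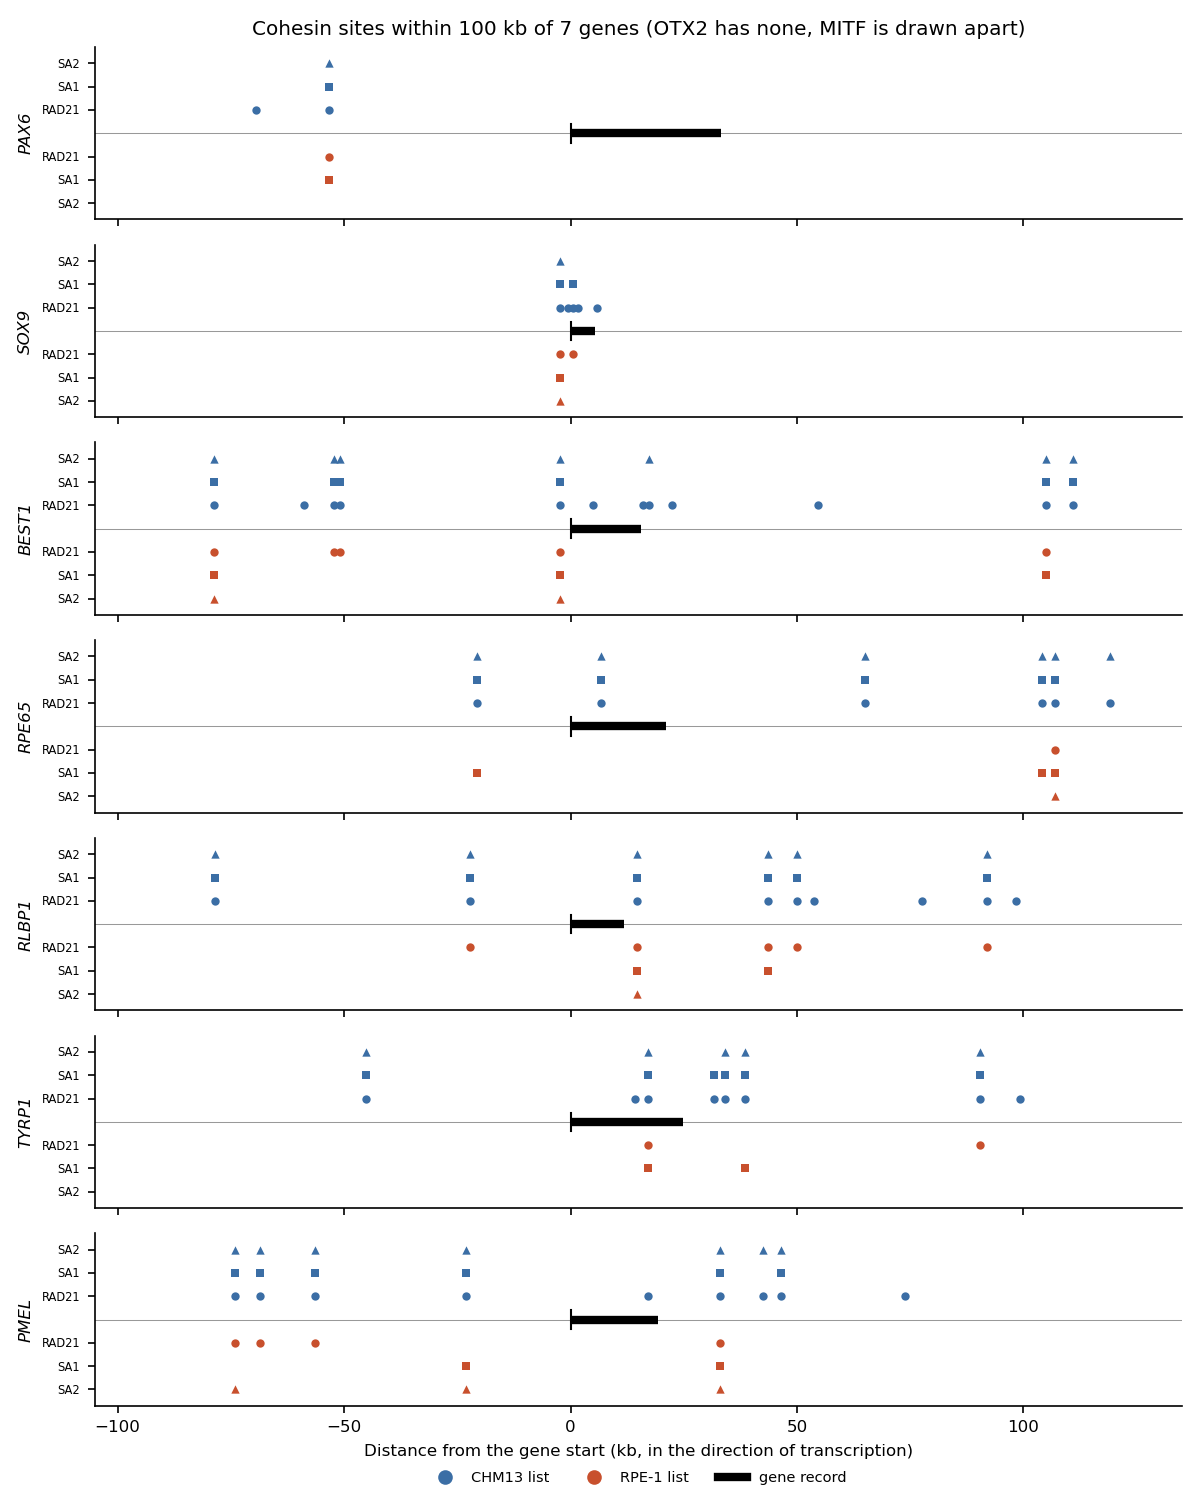
Sites within 100 kb of PAX6, SOX9, BEST1, RPE65, RLBP1, TYRP1 and PMEL by distance from the gene start in kb, with CHM13 above and RPE-1 below each line, a row per subunit and the gene record as a black bar. Of these genes, peaks near the start are seen at SOX9 and at -2.24 kb of BEST1, and every RPE-1 peak lies at a site with a CHM13 peak.

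For SOX9 alone of the 9 genes a peak lay within 1 kb of the start of the gene record, in the RAD21 and SA1 lists of CHM13 and the RAD21 list of RPE-1, while the SA2 list of CHM13 and the SA1 and SA2 lists of RPE-1 had none at the 9. Among all coding genes, 33.1% had such a peak in the CHM13 RAD21 list, 17.7% in the SA1 list and 14.0% in the SA2 list, and in RPE-1 the shares were 6.22%, 2.03% and 1.57%. With the start of any annotated transcript of the gene, the CHM13 RAD21 list had a peak at 4 of the 9 genes (SOX9, BEST1, TYRP1 and PMEL) and the RPE-1 RAD21 list at 2 (SOX9 and TYRP1). The share of all coding genes was not computed for this wider definition, so these counts cannot be read against the shares above. Of the 56 sites in the 9 windows, 9 lay within 1 kb of the start of any coding gene, among them those at FANCI, FTH1 and RPS26.

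Across the 56 sites, 28 were in CHM13 alone (50.0%), 26 in both lines (46.4%) and 2 in RPE-1 alone (3.57%), both at MITF. Genome-wide the shares were 77.6%, 21.8% and 0.618%. In all 6 lists were 7 sites (12.5%, genome-wide 6.18%), 2 at BEST1 and 1 each at MITF, SOX9, RPE65, RLBP1 and PMEL. Of RPE-1 peaks in the windows, 21 of 23 RAD21 peaks (91.3%, Wilson 95% interval 73.2 to 97.6), 16 of 18 SA1 peaks (88.9%, 67.2 to 96.9) and 10 of 12 SA2 peaks (83.3%, 55.2 to 95.3) lay on a CHM13 peak of the same subunit, and each of the exceptions was at MITF. Genome-wide these shares were 97.1%, 97.5% and 98.5%. In the other direction, 38.9% of CHM13 RAD21, 45.7% of SA1 and 27.8% of SA2 peaks overlapped an RPE-1 peak, against 19.5%, 27.2% and 14.2% genome-wide. At every site with a peak of the same subunit in both lines the CHM13 peak was the wider, at 21 of 21 sites for RAD21, 16 of 16 for SA1 and 10 of 10 for SA2. The median RAD21 widths there were 771 bp in CHM13 and 503 bp in RPE-1. Where RPE-1 had no RAD21 peak, the CHM13 peaks had a median of 646 bp. CHM13 peaks were also the wider over whole lists, with medians of 608 to 724 bp against 360 to 443 bp in RPE-1. How often they were the wider at shared sites genome-wide was not computed.

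In CHM13 every SA1 peak (35 of 35) and every SA2 peak (36 of 36) in the windows overlapped a RAD21 peak, against 94.6% and 96.9% genome-wide. In RPE-1, 13 of 18 SA1 peaks (72.2%) and 10 of 12 SA2 peaks (83.3%) did, against 78.7% and 88.0%. The SA1 and SA2 peaks of RPE-1 without RAD21 lay at MITF (-68.2 kb), RPE65, TYRP1 and PMEL. At 38.5 kb of TYRP1 and at -20.6 and 104 kb of RPE65, SA1 was listed alone in RPE-1 and all 3 subunits in CHM13.

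An exact CTCF core match lay within 150 bases of the centre of 6 of the 56 sites, and a match with at most 1 mismatch in 20. With 1 mismatch allowed, the 300 bases held a match at 13 of the 28 sites with an RPE-1 peak, at 7 of the 28 in CHM13 alone and at 4 of the 7 in all 6 lists. Genome-wide, 24.2% of sites, 54.1% of those in all 6 lists and 41.7% of the 48 with all RPE-1 subunits and no CHM13 peak held one, and so did 1.63% of 29101 windows of 300 bases spaced evenly along the genome. Among peaks in the 9 windows the shares with 1 mismatch were 37.0%, 51.4% and 50.0% for RAD21, SA1 and SA2 of CHM13 and 34.8%, 55.6% and 50.0% for RPE-1, whereas over whole lists they were 24.9%, 40.5% and 35.0% for CHM13 and 62.6%, 62.1% and 64.0% for RPE-1. A match is a string in the reference and not a bound site, and CTCF binding was not analysed here.

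A further 34 genes of pigment, visual cycle and eye development served as context. Over their windows RPE-1 had 80 RAD21, 59 SA1 and 33 SA2 peaks and CHM13 had 284, 158 and 170. None of the 34 passed the test for any subunit. An RPE-1 RAD21 peak lay within 1 kb of the start of 4 of the 34, against 6.22% of all coding genes. These were LRAT and RDH5 (visual cycle enzymes), TTR (a carrier of retinol) and MERTK (a receptor for the uptake of photoreceptor debris). In RPE-1, SA1 was added at TTR and SA2 at RDH5. The CHM13 RAD21 list had such a peak at 7 of the 34, against 33.1% of all coding genes. RDH5 and TTR had start peaks of all 3 subunits in CHM13, and LRAT and MERTK had none there. At LRAT, RPE-1 had 5 and CHM13 6 RAD21 peaks (Fisher's exact p = 0.0256, adjusted p = 0.762). Unadjusted p was under 0.05 for 1, 0 and 2 of the 34 for RAD21, SA1 and SA2. Over all coding genes tested it was so for 1055 of 19426, 61 of 19074 and 483 of 19102.

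The gene most like each of the 9 by peak numbers was sought on other chromosomes, as the smallest Euclidean distance of log2(count + 1) over 12 values (the 6 lists, in the record and in the 100-kb flanks). It was GLRA1 for MITF at a distance of 1.24, the largest of the 9, and DHX30 for SOX9 at 0.72. The distances of BEST1, RPE65, RLBP1, TYRP1 and PMEL from their nearest genes were 0.14 to 0.54. PAX6 shared its counts with 10 genes on other chromosomes and OTX2, without a peak, with 484.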

How the data were processed

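Per the methods, the authors aligned paired reads with bwa mem, filtered secondary and supplementary alignments out, called peaks with macs per replicate and pooled these with GenomicRanges, so that a locus had to be present in at least 2 replicates, which is every replicate in RPE-1 and 2 of 3 in CHM13. These steps are stated for CHM13 v1.0, and the alignment to hg38 is not given in the methods. The submitters' processing notes name bcl2fastq 2.20, BWA, SAMtools, MACS2 and hg38. The deposited files are 12 peak lists, of which the 6 on hg38 were used, with those on CHM13 v1.0 only for the ratio between lines. The lists give start and end in bp, 0 peaks passed a chromosome end, and sequencing depth per library was not used here. Depth bears on which peaks were called, and its part in the difference between the lines was not tested.

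Peaks were assigned to windows by their centre, with at least 1 bp of overlap for starts, sites and shared peaks. Python 3.11.15, pandas 2.3.3, scipy 1.17.1 (Fisher's exact test), statsmodels 0.14.6 (Benjamini-Hochberg), pysam 0.24.0 and matplotlib 3.10.9 were used, and the tests were tested on simulated data. The 9 genes, the list of 34 further genes and the windows were chosen with earlier results of these data known. Named were the 9 genes, further eye genes with an RPE-1 peak at the start, neighbours that hold or lie at a printed site, and the gene most like a member in peak numbers. ABLIM1 and MCPH1 fell outside this rule and were named after their values were seen. Sequences were read from hg38.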

Additional observations from a re-analysis of the deposited data

How the results depend on the processing

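No paired analysis was possible because each list pools its replicates, and no replicate could be left out for the same reason. Odds ratios of MITF stayed above 1 under the alternatives that gave a value, and none of the 9 genes passed the test under any. Where the CHM13 lists were cut to their widest peaks, no CHM13 peak was left at MITF and some other genes, and no odds ratio could be given. With supported peaks only (SA1 or SA2 peaks on RAD21 peaks and RAD21 peaks on either), odds ratios turned to 0.833 for TYRP1 RAD21, 0.857 for RPE65 SA1, 0.714 for TYRP1 and PMEL SA1, and 0.757 (RAD21) and 0.892 (SA1) for PAX6 at 1000 kb. With 50-kb flanks they turned to 0.823 for BEST1 and TYRP1 RAD21, 0.987 for PMEL RAD21 and 0.0 for RPE65 SA2, with 200-kb flanks to 0.759 for TYRP1 RAD21, 0.713 for PMEL SA1 and 0.868 for RPE65 SA2, with the same chromosome as reference to 0.923 for PMEL SA1, and with the CHM13 lists cut to their widest peaks to 0.5 for SOX9 SA1. None of these had passed the test. The number of genes called at 100 kb became 4 for RAD21 with the widest CHM13 peaks and 1 with 200-kb flanks. At 1000 kb the RAD21, SA1 and SA2 calls, 3157, 2 and 188, became 0, 0 and 297 with supported peaks and 6602, 4 and 1950 with the widest CHM13 peaks. With the same chromosome as reference RAD21 and SA2 became 1409 and 19, and with peaks joined SA1 became 5. Of the 9 genes, those with a start peak numbered 2, 2 and 2 in the RAD21, SA1 and SA2 lists of CHM13 within 2 kb, and 4, 2 and 1 with any transcript start, when RPE-1 had 2 (RAD21) and 1 (SA1). Shares of all coding genes were not computed for these definitions of the start. Supported RPE-1 RAD21 peaks gave 0. With a reciprocal overlap of 50%, 55.6% of RPE-1 SA1 and 28.6% of CHM13 SA1 peaks were shared. Against the widest CHM13 peaks, where the genome-wide ratio is 1 by construction, the pooled ratios were 4.6, 2.25 and 4.0, and in the gene records alone the SA2 ratio was 0.667. On CHM13 v1.0 the genome-wide ratios were 0.217, 0.295 and 0.219. With 1 mismatch, the CTCF core shares rose from 11.1% to 37.0%, 11.4% to 51.4% and 13.9% to 50.0% for RAD21, SA1 and SA2 of CHM13 and from 13.0% to 34.8%, 11.1% to 55.6% and 16.7% to 50.0% for RPE-1. For the settings whose construction does not show it, the cause was not tested. Few peaks per window limit what a test can show.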
